A study of Mus musculus with 7 samples.

Results

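Class V myosins and the small GTPase Rab27 move secretory granules along the actin layer under the plasma membrane, and 10 genes of this system were followed in sorted mouse pancreatic alpha cells with and without a deletable Nkx2-2 gene. The members were chosen by symbol: the 3 class V myosins Myo5a, Myo5b and Myo5c, the 2 GTPase genes Rab27a and Rab27b, and 5 genes for Rab27 effectors, which are Mlph, Myrip, Sytl2, Sytl4 and Sytl5. They are 10 of the 55536 genes in the count table, and each was found there under a single symbol. The set was taken up when the difference between knockout (KO) and control libraries was already known for Myo5c. Every KO against control value of the 10 members is therefore a description, its adjusted p-value included, and supports nothing by itself.

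Control mice were Nkx2.2+/+;Gcg-iCre;Rosa26:tdTomato (4 libraries) and KO mice were Nkx2.2fl/fl;Gcg-iCre;Rosa26:tdTomato (3 libraries), on the strain that the series' text spells C57B1/6J. Both groups thus carried the Cre recombinase driven by the glucagon gene and the red reporter by which alpha cells were sorted, and only KO mice carried floxed Nkx2-2, a homeodomain transcription factor gene of islet cells. Cre acts only where the glucagon promoter has been active, and the reporter stays on in a cell once it is recombined, so a sorted cell need not still make glucagon. The labels give no age and do not say whether libraries came from separate mice, so p-values measure the spread between these libraries.

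Myosin Va carries granules and pigment organelles along actin, myosin Vb works mainly with Rab11 on recycling endosomes, and myosin Vc is known from exocrine and other epithelial cells. Rab27a and Rab27b sit on the granule membrane. Melanophilin (Mlph) and Myrip link Rab27 to a class V myosin, while the synaptotagmin-like proteins Sytl2, Sytl4 (granuphilin) and Sytl5 bind Rab27 and membranes, and granuphilin docks insulin granules in beta cells.

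Library totals ran from 45483504 to 72456557 counts, and the 10 members together took between 20430 and 42603 counts per library. Levels are given as normalized counts, the counts after division by each library's DESeq2 size factor, and ± marks the standard deviation (SD). Library values always follow the order control 1, 2, 3, 4, then KO 1, KO 2 and a last KO library that has no number of its own, called the unnumbered KO library. Gcg, the defining alpha cell gene, was the most abundant alpha marker in every library, and its mean was 7042700 in controls and 3423100 in KO libraries. Nkx2-2 itself fell in KO, from 10468 ± 1618 normalized counts (SD, n = 4) to 7662 ± 115 (SD, n = 3) without overlap (adjusted p 0.0218 in DESeq2, 0.152 in edgeR), and 51.3% of its exon length lies under genes of the opposite strand. For each of the 10 members that share is 0% in the GENCODE M21 annotation. All 10 also passed the filter on low counts, the lowest count of any member in any library being 25 (Myo5c, control 3). The libraries are bulk RNA, in which fewer cells of a type and less RNA per cell cannot be told apart.

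Of the 10 members, 2 had an adjusted p under 0.05 in DESeq2, Myo5b and Myo5c, both higher in KO. The share was 4.51% over all 17571 genes tested, of which 394 were higher and 398 lower in KO, and nothing is read from the comparison because the members were picked with this contrast known. With library totals in place of size factors the split over all genes was 680 higher and 297 lower. Under the edgeR quasi-likelihood test Myo5b alone of the 10 was past the threshold, where 1.05% of 19310 genes were. KO and control libraries did not overlap for the same 2 members, against 12% of all genes tested. The median log2 fold change was 0.35 over the 10 members and 0.01 over all genes tested.

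**Figure D1:**
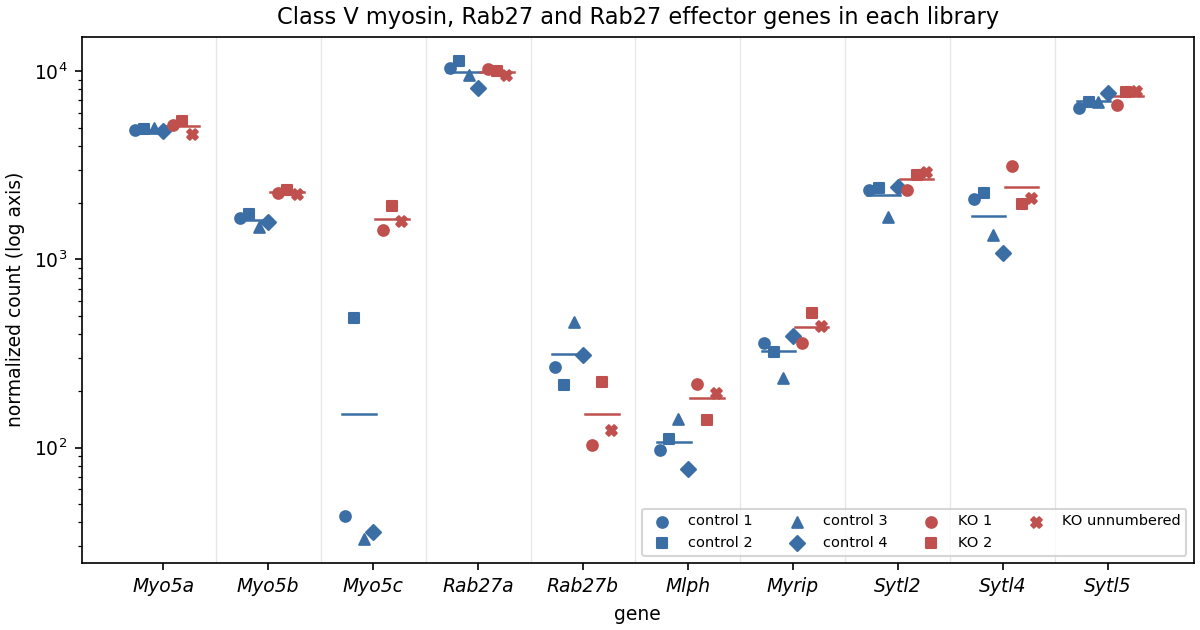
Normalized counts of the 10 genes on a log axis, with a point for each library (blue, 4 controls; red, 3 KO libraries) and a short line at each group mean. Myo5c spans from 32.7 in control 3 to 1914 in KO 2, with control 2 at 490.7 between the other controls and the KO libraries.

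Myo5c (ENSMUSG00000033590, GRCm38 chromosome 9, 75232020 to 75305451, plus strand) showed the widest difference of the set. Control libraries held 43.1, 490.7, 32.7 and 35.4 normalized counts, KO libraries 1436, 1914 and 1596. The 3 KO libraries were close to one another and all above the controls, but control 2 stood far above the other 3 controls. These levels rested on 38, 416, 25 and 49 counts for controls and on 1468 to 2154 counts for KO libraries. DESeq2 put the log2 fold change at 3.45 (SE 1.10) with adjusted p 0.0411, and edgeR gave adjusted p 0.135. The KO mean was 10.95 times the mean of all 4 controls, 44.5 times the mean of controls 1, 3 and 4, and 3.36 times the level of control 2. The lowest KO library lay 2.93 times above the highest control.

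The call for Myo5c depended on single libraries. Without control 2 the log2 fold change was 5.48 (SE 0.24) and the adjusted p in DESeq2 3.8e-113, and without control 1, 3 or 4 the adjusted p was 0.139, 0.132 or 0.0939. The 3 fits that each left out a KO library gave Myo5c no adjusted p. Its log2 fold change was at least 3.12 in all 7 fits.

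The sequence upstream of Myo5c is shown because it is the member with the widest difference, beside that of Myo5a, its paralogue and upstream neighbour, and that of Mlph, whose window holds both motifs searched. Each is the 250 bases before the transcript start, from RefSeq on GRCm38.p6. Capitals mark matches to TNAAGTG, a form of the NKX2 homeodomain site, and to CACGTG, the palindromic E-box, both searched on both strands. The motifs share no overlapping match in these windows. The Myo5c window is chr9:75231764-75232013, the Myo5a window chr9:75070956-75071205 and the Mlph window chr1:90914850-90915099, all on the plus strand. These RefSeq starts differ from the GENCODE gene starts given elsewhere in this text. The Myo5a window runs past the GENCODE start of 75071015, so most of it lies inside the GENCODE gene, and the Mlph window runs past 90915085.
Myo5c: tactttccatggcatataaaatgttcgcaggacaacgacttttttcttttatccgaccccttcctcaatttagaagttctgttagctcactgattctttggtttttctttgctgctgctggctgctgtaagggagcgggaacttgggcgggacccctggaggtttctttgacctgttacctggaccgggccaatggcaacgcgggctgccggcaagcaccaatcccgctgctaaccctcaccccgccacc
Myo5a: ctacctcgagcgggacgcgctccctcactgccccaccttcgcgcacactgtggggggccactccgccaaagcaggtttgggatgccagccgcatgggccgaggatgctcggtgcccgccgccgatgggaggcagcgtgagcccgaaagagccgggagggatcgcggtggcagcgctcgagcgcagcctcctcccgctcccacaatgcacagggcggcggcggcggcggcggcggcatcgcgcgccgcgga
Mlph: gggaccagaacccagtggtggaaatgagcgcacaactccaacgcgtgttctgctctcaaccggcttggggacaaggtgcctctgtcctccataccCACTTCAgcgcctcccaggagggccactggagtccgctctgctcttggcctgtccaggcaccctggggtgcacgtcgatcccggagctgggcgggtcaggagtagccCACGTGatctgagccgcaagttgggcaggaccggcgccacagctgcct

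The windows of Myo5c and Myo5a held neither motif, and no match says only that these letters are not in these 250 bases. The Mlph window held 1 match to TNAAGTG on the minus strand, starting 155 bases before the transcript start, and 1 to CACGTG, starting 48 bases before it. Among 32851 promoter windows of the same length, 10.1% held TNAAGTG and 6.02% held CACGTG. A total of 7 members were matched in the promoter table, and 2 of their 8 windows held each motif, the second being that of a downstream start of Rab27a. The windows also differed in composition, with 52.8% G and C for Myo5c, 74% for Myo5a and 64.8% for Mlph.

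Myo5b (ENSMUSG00000025885, chromosome 18, 74440936 to 74771493, plus strand), the recycling-endosome myosin, was higher in every KO library than in every control. Control libraries held 1664, 1746, 1484 and 1570 normalized counts, KO libraries 2242, 2339 and 2219.5. Both groups were tight, the controls at 1616 ± 114 (SD, n = 4) and the KO libraries 40.3% higher at 2267 ± 63.6 (SD, n = 3). DESeq2 put the log2 fold change at 0.49 (SE 0.11) with adjusted p 0.000465, and edgeR gave adjusted p 0.046. The fold change lay between 0.45 and 0.53 in the 7 fits that left out 1 library, all past the DESeq2 threshold.

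Myo5a (ENSMUSG00000034593, chromosome 9, 75071015 to 75223688, plus strand), the classical granule motor, was the steadiest of the members in controls. Control libraries held 4864, 4930, 4990 and 4785 normalized counts, KO libraries 5177, 5450 and 4627. The groups overlapped, and the log2 fold change was 0.06 (SE 0.10, adjusted p 0.985 in DESeq2).

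The make-up of the class V myosins can be read within each library, where the scaling between libraries drops out. After division by exon length, Myo5c made up 0.883%, 8.997%, 0.684% and 0.749% of the summed class V myosin counts of the controls. In the KO libraries it made up 20.4%, 24.5% and 23.4%. Myo5a accounted for 64.8% ± 3.96 (SD, n = 4) of control and 46.1% ± 1.88 (SD, n = 3) of KO counts, while the part of Myo5b was 32.4% ± 1.32 and 31.2% ± 1.30. A share also depends on the other genes in the sum. In normalized counts per kb of exon, Myo5a was at 330.5 ± 5.96 in control and 343.5 ± 28.3 in KO libraries. Myo5b was at 165.5 ± 11.6 and 232.1 ± 6.51. The summed level of the 3 genes was 511.5 ± 34.6 normalized counts per kb in controls and 745.6 ± 52.8 in KO libraries, without overlap. Its lowest KO library had 704.4 and its highest control 562.4.

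**Figure D2:**
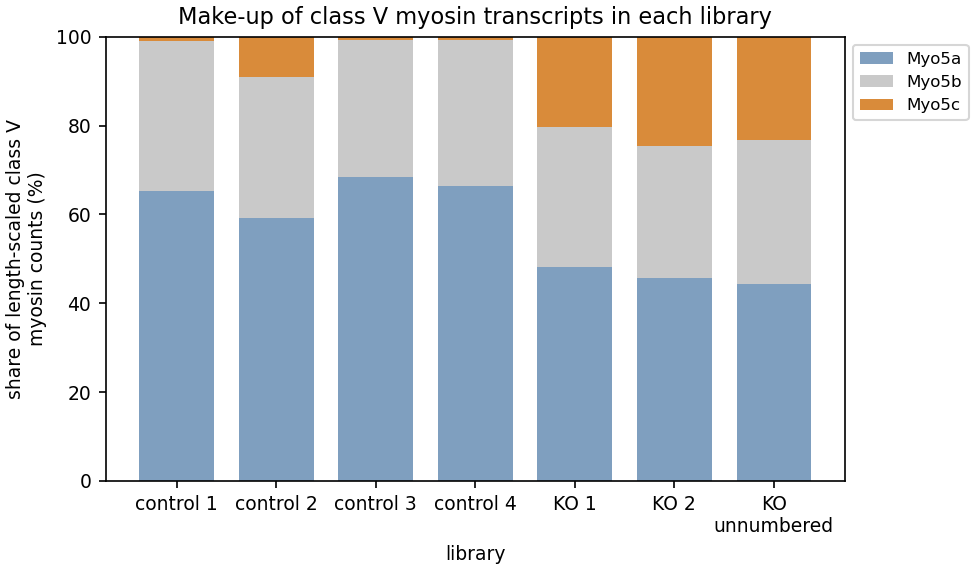
Share of each class V myosin in the summed length-scaled counts of the 3 genes (y axis, percent), 1 bar per library. Myo5c (orange) takes 20.4% to 24.5% in the KO libraries, 8.997% in control 2 and under 1% in the other 3 controls.

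Among the GTPases, Rab27a was abundant and showed no difference beyond the spread between libraries, while its low-abundance paralogue Rab27b was lower in most KO libraries. Rab27a (ENSMUSG00000032202, chromosome 9, 73044854 to 73097629, plus strand) held 10395, 11378, 9515 and 8160 normalized counts in control, 10216, 10062 and 9505 in KO libraries. Its log2 fold change was 0.01 (SE 0.13, adjusted p 0.999 in DESeq2), and the value lay between -0.07 and 0.09 when 1 library was left out. Rab27b (ENSMUSG00000024511, chromosome 18, 69979131 to 70141605, minus strand) held 267, 215, 463 and 310.04 normalized counts in control, 104, 223 and 124 in KO libraries. KO 2 lay above control 2, so the groups overlapped, and the other KO libraries lay below all controls. DESeq2 put the log2 fold change of Rab27b at -1.06 (SE 0.36) with adjusted p 0.0651, and edgeR gave adjusted p 0.276. It was past the DESeq2 threshold in 3 of 7 fits with a library left out, those without KO 2 (0.00509), without control 2 (0.0312) and without control 4 (0.038). Rab27b made up 1.175% ± 0.468 (SD, n = 4) of the length-scaled Rab27 counts of controls and 0.5465% ± 0.225 (SD, n = 3) of those of KO libraries.

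The effectors that join Rab27 to myosin were both expressed at low levels and higher on average in KO, with overlapping libraries. Mlph (ENSMUSG00000026303, chromosome 1, 90915085 to 90951142, plus strand) held 97.6, 111, 142.5 and 76.6 normalized counts in control, 217, 140.46 and 195 in KO libraries. KO 2 lay just under control 3, at 0.986 of its level, and the other KO libraries lay above all controls. DESeq2 put the log2 fold change at 0.79 (SE 0.33) with adjusted p 0.204, and Mlph was past the threshold in none of 7 fits with a library left out. Myrip (ENSMUSG00000041794, chromosome 9, 120301513 to 120474841, plus strand) held 357, 323, 235 and 392 normalized counts in control, 361, 517 and 441 in KO libraries. Its log2 fold change was 0.42 (SE 0.24, adjusted p 0.526 in DESeq2). Per kb of exon, the 2 genes together summed to 79.0 ± 7.08 (SD, n = 4) normalized counts for controls and 113.8 ± 7.25 (SD, n = 3) for KO libraries, and these sums did not overlap. The balance between them differed widely from library to library, with Mlph at 16.8% to 38.5% of the pair in controls and 21.9% to 38.3% in KO libraries.

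The synaptotagmin-like effectors did not differ beyond the spread between libraries. Sytl4 (ENSMUSG00000031255, chromosome X, 133936385 to 133981812, minus strand), the granuphilin gene, held 2101, 2247, 1344 and 1076 normalized counts in control, 3139, 1974 and 2123 in KO libraries. Controls 3 and 4 were low and KO 1 was high, and the log2 fold change was 0.51 (SE 0.26, adjusted p 0.411 in DESeq2). Sytl2 (ENSMUSG00000030616, chromosome 7, 90302252 to 90410719, plus strand) held 2351, 2392, 1675 and 2422 normalized counts in control and 2333 to 2902 in KO libraries (log2 fold change 0.28, SE 0.16, adjusted p 0.549). Sytl5 (ENSMUSG00000054453, chromosome X, 9885622 to 9994543, plus strand) ranged from 6366 to 7625 in controls and from 6580 to 7830 in KO libraries (log2 fold change 0.09, SE 0.11, adjusted p 0.949).

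**Figure D3:**
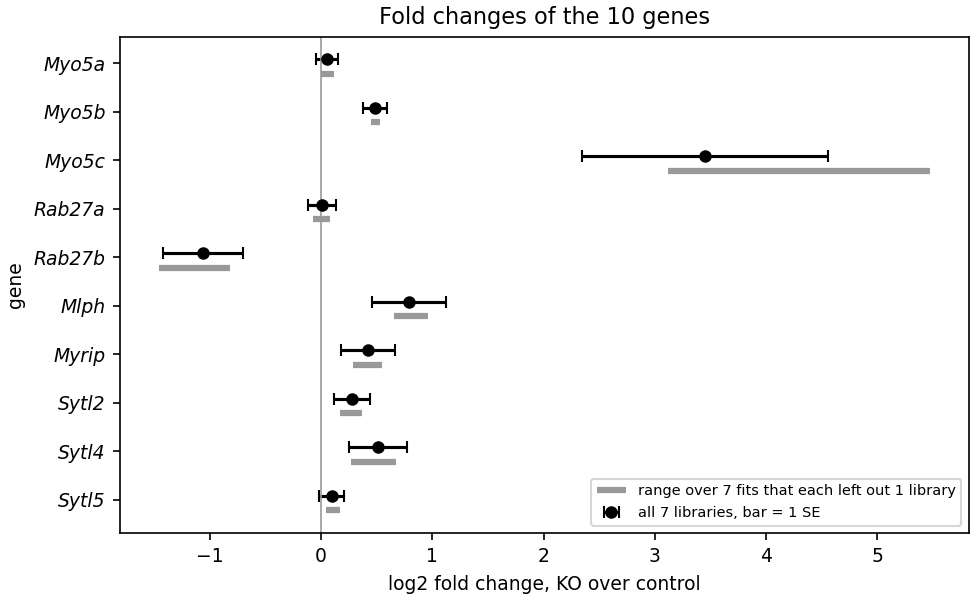
Log2 fold change of KO over control for each gene (x axis); black points with bars of 1 SE come from all 7 libraries, and grey bars span the 7 fits that each left out 1 library. Myo5c reaches from 3.12 to 5.48 across those fits, Myo5b stays between 0.45 and 0.53, and the Rab27b bar runs from -1.46 to -0.82.

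Levels were compared between genes as normalized counts per kb of merged exon, in the 4 control libraries. Sytl5 (3008 ± 227, SD) and Rab27a (2542 ± 352) led by a wide margin. Sytl5 was above Rab27a in each of the 4 controls, although their ranges overlapped. Next came Myo5a (330.5 ± 5.96) and Sytl4 (330.1 ± 111), whose libraries overlapped and whose means changed places without control 3 or control 4, then Myo5b (165.5 ± 11.6) and Sytl2 (158.5 ± 25.7), which also overlapped and changed places without control 3. Myrip (59.1 ± 12.2), Rab27b (29.4 ± 10.01) and Mlph (19.95 ± 5.16) followed, each overlapping the next. Myo5c was last, at 3.37 to 4.45 in controls 1, 3 and 4, with 50.6 in control 2, and its mean moved above that of Mlph without control 3 (19.57 against 17.74). In KO libraries Myo5c was seventh, at 148 to 197, a range that overlapped that of Sytl2 (167 to 208), and Rab27b was last, at 9.71 to 20.9.

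**Figure D4:**
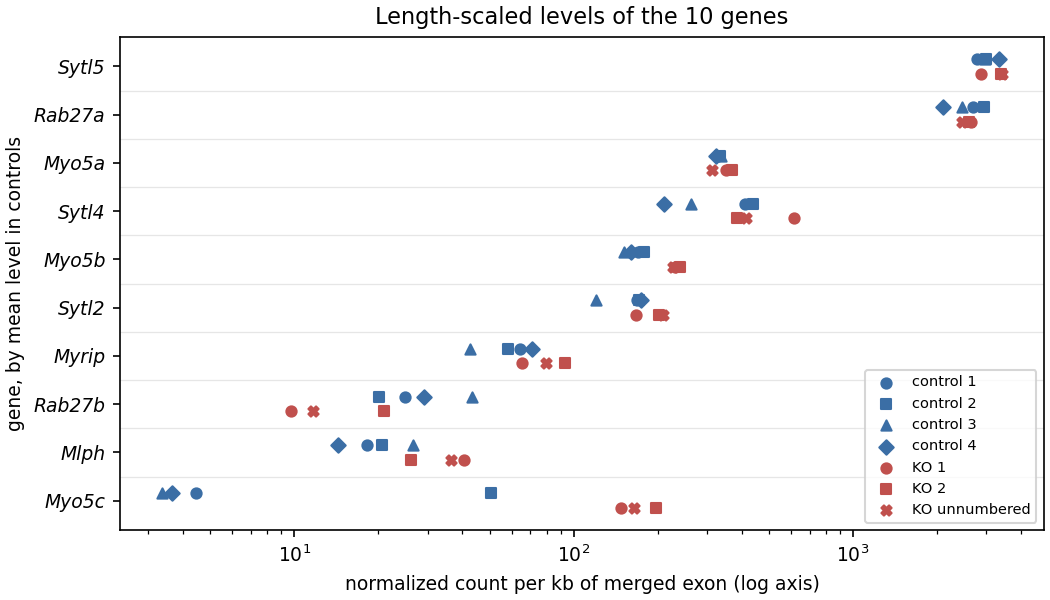
Normalized counts per kb of merged exon on a log axis (x), genes ordered by their mean in controls (y); upper blue symbols are the 4 controls and lower red symbols the 3 KO libraries. Sytl5 and Rab27a lie above 2000 in all libraries, and Myo5c has the only control point, control 2, that stands apart by more than 10 times.

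Myo5c, Myo5a and Rab27a lie on chromosome 9, all on the plus strand. Myo5c starts 8.33 kb after the end of Myo5a and 2.13 Mb after the end of Rab27a. Of 29 protein-coding genes between Rab27a and Myo5c with 500 kb on either side, 22 were tested. DESeq2 called 3 higher in KO, Myo5c among them, and 1 lower, and over all genes tested it called 4.51%. The window was placed around Myo5c with its difference known, so nothing is read from the comparison. The median log2 fold change of the 22 genes was 0.01. Prtg, which encodes the cell surface receptor protogenin, rose from 28.3 ± 34.0 normalized counts (SD, n = 4) to 326 ± 69.3 (SD, n = 3; log2 fold change 3.53, SE 0.69, adjusted p 3.34e-05 by DESeq2 and 0.0868 by edgeR). Like Myo5c it was highest among controls in control 2, at 77.8 against 5.23 to 23.1 in the other 3. Pygo1, a Wnt pathway cofactor gene beside Prtg, rose from 391 ± 119 to 747 ± 136 (log2 fold change 0.94, adjusted p 0.0149 in DESeq2 and 0.148 in edgeR). Tmod2, which encodes an actin-capping tropomodulin, fell from 16379 ± 2013 to 9798 ± 316 (log2 fold change -0.74, adjusted p 7.89e-08 in DESeq2 and 0.0251 in edgeR). The gene that starts 836 bases after Myo5c, Gnb5, did not pass (log2 fold change 0.16, SE 0.23, adjusted p 0.975), with 51.1% of its exon length under genes of the opposite strand, and Fam214a and Arpp19, upstream of Myo5a, had -0.14 and -0.13.

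**Figure D5:**
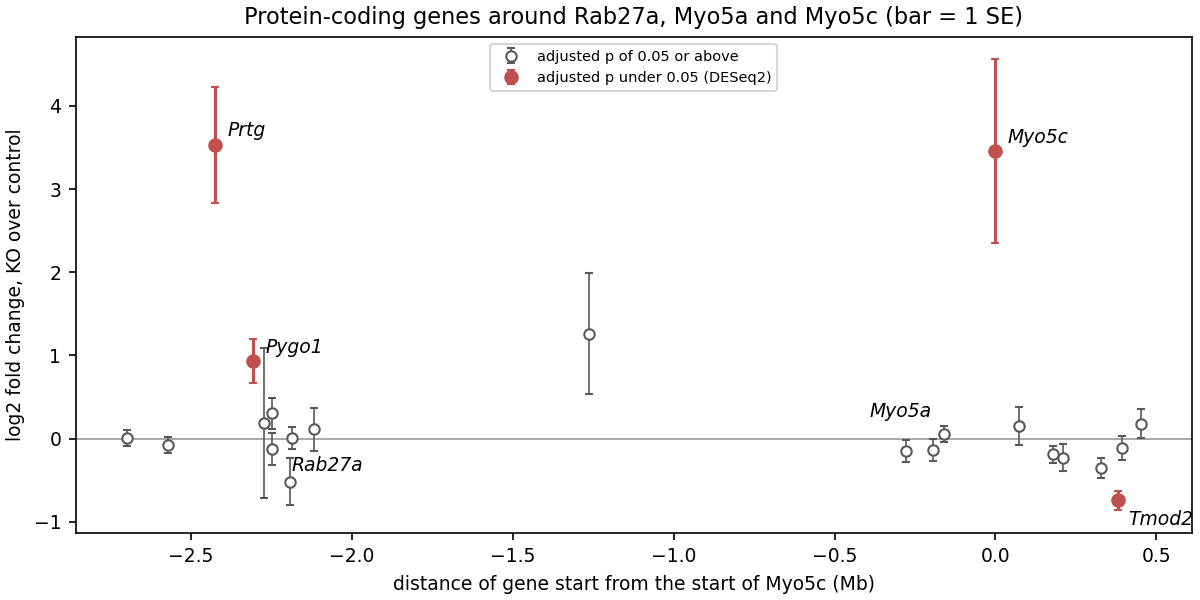
Log2 fold change of KO over control (y axis, bars of 1 SE) of the 22 tested protein-coding genes around Rab27a, Myo5a and Myo5c, by the distance of each gene's start from that of Myo5c in Mb (x axis). Filled red points are the 4 genes with an adjusted p under 0.05 in DESeq2: Prtg, Pygo1, Myo5c and Tmod2.

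The 5 genes whose pattern over the 7 libraries was most like that of Myo5c, by Pearson's r of log2(normalized count + 1) among 19651 genes, were Limch1 (0.994), Gm8893 (0.994), Sntb1 (0.994), Galk1 (0.993) and Gm38655 (0.993). The libraries fall into 2 groups for these genes, so r mostly describes the shared difference between groups and the place of control 2. Limch1, whose product binds actin and activates nonmuscle myosin, had 2062 normalized counts in control 2, 503.72 to 630 in the other 3 controls and 2918 to 3782 in KO libraries. Sntb1, which encodes beta-1-syntrophin of the dystrophin complex, had 564 in control 2, 83.7 to 136 in the other controls and 815 to 977 in KO libraries. Galk1, the galactokinase gene, had 130 in control 2, 4.34 to 10.2 in the other controls and 253 to 438 in KO libraries. Gm38655 had no count in controls 1, 3 and 4, under the floor of 3 counts, and 97.9 in control 2. Gm8893 is an unprocessed pseudogene, whose counts may include those of related genes. In DESeq2 the adjusted p was 0.0312 for Limch1 and 0.00811 for Gm8893. Sntb1 (0.11), Galk1 (0.182) and Gm38655 (0.834) did not pass, and edgeR called none of the 5.

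Markers of other islet cells also reached their highest control level in control 2. The summed normalized counts of the 2 gamma cell genes Ppy and Pyy were 579100 in control 2, 308200 to 396600 in the other controls and 888200 to 1135000 in KO libraries, and both genes rose in KO. The ghrelin cell genes Ghrl and Mboat4 summed to 1342 in control 2 and 26.15 to 485.6 in the other controls. In KO libraries their sum was 2469 to 4850. DESeq2 called 1 of the 2, Mboat4, higher in KO. The mean of Ghrl rose from 496 to 3878 without overlap, but Ghrl did not pass (adjusted p 0.130 in DESeq2). Control 2 also had the highest sum among controls for 8 beta cell genes (690600, against 336700 to 606200). The same held for 4 delta cell genes (399000, against 196300 to 345500). DESeq2 called 1 gene of each list higher in KO, Iapp and Rbp4, and neither passed in edgeR (adjusted p 0.153 and 0.0761). All genes of both lists had higher means in KO. Of the exon length of Iapp 100% lies under genes of the opposite strand, and of that of Slc2a2, another beta cell gene, 97.8%. Their reads may include those of the opposite genes. For 7 duct genes control 2 had 25220, against 17120 to 21150, and DESeq2 called 1, Epcam, higher in KO. Krt7 and Epcam made up most of that sum. Of the other duct genes, named after their values were seen, Sox9 had 586 in control 2, 94.1 to 249.6 in the other controls and 682 to 1039 in KO libraries (adjusted p 0.169). Cftr had 37.7, 2.61 to 18.8 and 60.6 to 72.3 (adjusted p 0.166). The sums of the beta, delta and duct lists overlapped between KO and control. The acinar list holds 10 genes of the exocrine cells in which myosin Vc is known. Control 3 had its highest sum of all libraries (12850), control 2 had 1074, and controls 1 and 4 had 4685 and 777.6. Of the 8 tested acinar genes DESeq2 called 1, Bhlha15, higher in KO. Bhlha15 did not share the peak of the sum in control 3, where it had 591 normalized counts. The other tested acinar genes, all for digestive enzymes, had lower means in KO with overlapping libraries. Their KO means were 0.655 (Pnlip) to 0.948 (Ctrb1) of the control means. Whether cells of other types, or alpha cells with these transcripts, carry the Myo5c counts was not tested.

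Of 8 alpha cell genes, 7 fell in KO, and their sum was 6472000 to 8459000 in controls and 2963000 to 4274000 in KO libraries, without overlap. The 6 leukocyte genes summed to 869 to 1422 in controls and 659 to 753 in KO libraries, with 1 of 2 tested genes lower. That gene, the complement gene C1qa, made up most of the sum (976 in control and 553 in KO libraries on average), and the other 5 had higher means in KO with overlapping libraries. Endothelial (369 to 556 against 357 to 921), mesenchymal (1341 to 3799 against 2165 to 3984) and Schwann cell sums (600.2 to 926.9 against 650.7 to 786.2) overlapped between controls and KO libraries, with no gene called by DESeq2. Melanocyte genes were examined because Mlph, Myo5a and Rab27a are known for pigment granule transport. Their sum was 409 to 458 in controls and 577 to 663 in KO libraries, carried by Mitf and Dct, with 0 of 3 tested genes called. The pigment enzyme gene Tyr reached at most 4.34 normalized counts in any library and Mlana at most 5.06. None of the marker genes was at 0 in all 7 libraries.

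Other genes of the same machinery were examined in 5 lists of 90 genes, also chosen with earlier results of these data known. Of the 87 that DESeq2 tested, 4 were called higher and 2 lower in KO (6.90%, against 4.51% of all genes tested). The median log2 fold change was -0.04. The 16 further Rab27 effectors and regulators had no call in DESeq2 or edgeR, 2 unadjusted p-values under 0.05 in each tool, and a median of 0.10. Among them Rph3al (Noc2), an effector of Rab3 and Rab27 in endocrine cells, held 8788 ± 728 (SD, n = 4) normalized counts in control and 9269 ± 664 (SD, n = 3) in KO libraries. Madd, which activates Rab3 and Rab27 by nucleotide exchange, had 10162 ± 433 and 11366 ± 756. Tbc1d10a, which turns Rab27a off, had 604 ± 23.6 and 767 ± 44.8 without overlap (adjusted p 0.148).

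In the list of 21 Rab3, secretory and recycling Rab genes and partners, Rab37 fell and no other gene passed, and the median was -0.04. Rab37, a GTPase of secretory granules, held 3719, 3685, 4488 and 4431 normalized counts in control, 2908, 3089 and 2821 in KO libraries (log2 fold change -0.47, SE 0.12, adjusted p 0.00314 by DESeq2 and 0.0726 by edgeR). Settings that ended the call included leaving out KO 1 (0.0746), library totals as size factors (0.0546) and keeping only the 4 libraries numbered 1 and 2 (0.182, log2 fold change -0.31). Rab3c, of the Rab3 group that acts beside Rab27 in exocytosis, had 2430 ± 486 and 1658 ± 247 (adjusted p 0.0521). Among partners of Myo5b, Rab11a had a log2 fold change of -0.12 (SE 0.12) and Rab11fip2 0.04 (SE 0.13), and neither passed.

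In the list of 12 genes for myosin V light chains, adaptors and actin nucleators (median -0.08), Calml4 rose and no other gene passed. Calml4 encodes a calmodulin-like light chain of an epithelial myosin outside class V. It held 11.3, 18.9, 0 and 13.009 normalized counts in control, 60.6, 70.2 and 53.3 in KO libraries (log2 fold change 2.49, SE 0.80, adjusted p 0.0447 by DESeq2 and 0.277 by edgeR). Leaving out a library kept it past the threshold in 3 of 7 cases, those without control 2, 3 or 4, and its adjusted p was 0.354 without KO 1. Of its exon length 66.9% lies under genes of the opposite strand, so its reads may include theirs.

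Of 24 other unconventional and nonmuscle myosin genes, 21 were tested and 3 were called higher in KO, with a median of -0.03. Myo10, the filopodial myosin, held 7814, 7722, 7151 and 7707 normalized counts in control, 10349, 12136 and 10178 in KO libraries (log2 fold change 0.52, SE 0.10, adjusted p 3.34e-05 by DESeq2 and 0.0439 by edgeR). Myo3a, a myosin known from sensory hair cells, held 40.8, 80.2, 33.991 and 95.4 in control, 223, 203 and 479 in KO libraries (log2 fold change 2.26, SE 0.46, adjusted p 7.28e-05 by DESeq2 and 0.0606 by edgeR). Both stayed past the threshold whichever of the 7 libraries was left out. Myo6, the motor that walks to the minus end of actin, rose from 8255 ± 442 to 10539 ± 324 (log2 fold change 0.35, adjusted p 0.00273 in DESeq2 and 0.119 in edgeR), and did not pass without KO 1 (0.129) or KO 2 (0.0585).

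Of 17 microtubule motor genes (median -0.07), Dync1i1, a dynein intermediate chain gene, fell from 585 ± 113 to 268 ± 38.9 normalized counts (log2 fold change -1.13, SE 0.22, adjusted p 2.98e-05 by DESeq2 and 0.0402 by edgeR), with an adjusted p of at most 0.00288 in the 7 fits that each left out a library. The kinesin genes Kif5b and Kif5c, whose motors carry granules along microtubules, had log2 fold changes of 0.09 and 0.06 and did not pass.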

How the data were processed

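RNA was sequenced from sorted alpha cells in 4 control and 3 KO libraries, made with a strand-specific low-input kit, per the labels' protocols, which call the RNA both polyA and ribo-depleted. The authors deposited whole-number counts per gene and library. FastQC, STAR, featureCounts, DESeq2 and the build mm10 are named in the submitters' processing notes, and versions and the strand setting are not given in the sources used here. Small counts were mostly even numbers (84.4% to 88.9% of the values from 1 to 10, by library), the pattern left when both mates of a pair are counted, which makes the independent depth smaller than the totals. A KO column is numbered 4 although no KO title is, and it entered as a KO library with no number.

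All 35178 genes with a count entered a DESeq2 1.42.0 fit under R 4.3.3 (Wald tests, default size factors and filters, no covariate), the tool that the design text names, with Benjamini-Hochberg adjustment over all genes tested and a threshold of 0.05. The edgeR 4.0.16 quasi-likelihood test with TMM factors was the first alternative. Lengths and positions came from GENCODE M21 (GRCm38, the assembly called mm10), in which all 55536 gene IDs were found. The fits were checked on simulated data. Named were the 10 members, Nkx2-2, Gcg, genes of 5 related lists past the threshold, protein-coding neighbours of Rab27a and Myo5c, and the 5 genes most like Myo5c with a mean of at least 10 normalized counts. Further list genes and neighbours were named for their role or position after their values were seen. The members, 5 lists and 12 marker lists (alpha, beta, delta, gamma, ghrelin, acinar, duct, endothelial, leukocyte, mesenchymal, Schwann and melanocyte) were chosen with earlier results of these data known.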

Additional observations from a re-analysis of the deposited data

Results flagged for a closer look

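Among 16 genes examined in the 4 controls (the 10 members and the 6 list genes past the threshold), 3 had an extreme control library under Dixon's criterion at 95%, against 0.8 such genes by chance, which marks about 1 group in 20. Myo5c had 490.7 normalized counts in control 2, 13.2 times the mean of the other controls (37.1 ± 5.41, SD, n = 3). Sytl2 had 1675 in control 3, below the other controls. Myo10 had 7151 in control 3, also the lowest of its group.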

How the results depend on the processing

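The 10 members gave 2 calls, the related lists 6 and all genes 792. In edgeR these counts were 1, 2 and 203. Of the members, 1 was called without independent filtering and 1 without the 2 deepest libraries. When 1 library was left out, from 1 to 3 members, from 3 to 7 list genes and from 430 to 907 genes in all were called, and KO 1 was the library whose absence gave 3 list genes and 430 genes. Library totals as size factors moved the median log2 fold change of all genes from 0.01 to 0.11, kept the direction of all 10 members and gave Myo5a 321 normalized counts per kb in controls.

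Libraries of the 2 groups share the numbers 1 and 2, but nothing says that a number marks a pair, and the deviations of same-numbered libraries correlated at 0.231 and 0.301 over 14570 genes. With the replicate block on these 4 libraries, 0 members (2 at an unadjusted p under 0.05, Myo5b and Myo5c), 5 list genes and 578 genes were called by DESeq2. The same 4 libraries without the block, added as an alternative once results had been seen, gave 1, 5 and 620. The adjusted p of Myo5b was 0.113 with the block and 0.0475 without it. Of the 6 list genes called in all 7 libraries, the block fit called 3 (Myo10, Myo3a and Myo6) and did not call Dync1i1 (0.175, and 0.0494 without the block), Rab37 (0.284) or Calml4 (0.258). Its other 2 calls, both lower in KO, were Fmn2 (0.00199), an actin nucleator gene, and Rab3c (0.0351). Myo5c rested on the fewest counts of the members in controls 1, 3 and 4, at 25 to 49. Its SE depended on control 2, at 1.10 with all 7 libraries and 0.24 without control 2.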
